A study of Mus musculus with 25 samples.

Results

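The 10 genes described here encode cytokine receptors of blood-forming and immune cells: Csf1r, Csf2ra, Csf2rb, Csf2rb2, Il3ra, Il7r, Il1r1, Il4ra, Il6ra and Flt3. They were taken by gene symbol from a table of 23284 genes, and each symbol matched 1 row. Their RNA was measured in 25 libraries of mouse aorta. EKO mice lack Apoe, the gene of apolipoprotein E, and DKO mice lack both Apoe and Apoa1, the gene of apolipoprotein A-I. All mice were males, and the labels give the same C57/BL6J strain for both genotypes. The Apoe deletion is common to every group, so no wild-type aorta serves as a reference. From 8 weeks of age they received a normal laboratory diet (NLD, called chow in the labels) or a Western-type diet (WD), for 6 or 22 weeks. DKO on NLD at 6 weeks has 4 libraries, and each of the remaining 7 groups has 3. The EKO libraries are labelled as a re-analysis of earlier samples, so genotype and the set a library came from cannot be told apart.

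Cytokine receptors of this kind sit at the cell surface and decide which growth signals a blood cell can answer. Csf1r binds CSF-1 and IL-34 and keeps macrophages alive, while Csf2ra binds GM-CSF and passes its signal through a shared beta chain, Csf2rb. Mice carry a further beta chain, Csf2rb2, which works with Il3ra in the response to IL-3. Il7r binds IL-7 as part of a receptor on lymphocytes and TSLP as part of another, Il4ra answers IL-4 and IL-13, and Il6ra binds IL-6. Il1r1 is the signalling receptor of IL-1 and is also widely used by cells of the vessel wall. Flt3 marks early progenitors and the dendritic cell lineage. In an atherosclerotic aorta such receptors are best known from the macrophages and other leukocytes that enter the plaque.

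Levels are given in FPKM, read counts divided by transcript length and by the number of mapped reads. Replicate 2 of EKO on WD at 22 weeks is a partial library, in which 68.5% of the 8693 genes above 5 FPKM in its group mates are listed at 0, so its zeros were taken as missing. That removed its value for Csf1r, Csf2ra, Il4ra, Il6ra and Flt3, which therefore have 2 values in that group, and left it for the other 5 receptors. The 5 complete libraries of EKO at 22 weeks sum to between 448239 and 556933 FPKM, against 360421 to 415555 in the 19 libraries of the other 6 groups. Relative depth, read from the steps between low values, ranged from 1 to 2.82 times that of the shallowest library, and absolute depth is unknown. Apoe was listed at 2.97 to 20.7 FPKM over the 24 complete libraries and Apoa1 at 0 to 1.97 FPKM, with the ranges of EKO and DKO overlapping for both genes, so these levels do not check the genotype labels. Smooth muscle markers, which define the aortic wall, were abundant, with a mean over libraries of 3166 FPKM for Acta2, 1636 FPKM for Tagln and 576 FPKM for Myh11.

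Most of the receptors were at their highest in EKO on WD at 22 weeks. On the FPKM scale, Csf1r averaged 54.7 ± 8.65 (SD, n = 2) there, Csf2ra 55.0 ± 18.7 (SD, n = 2), Csf2rb 36.6 ± 9.36 (SD, n = 3), Csf2rb2 31.6 ± 8.96 (SD, n = 3) and Il7r 24.2 ± 6.91 (SD, n = 3). The ranges of these 5 genes and of Il4ra in that group lay above the range of the group next below in mean. For Il3ra and Il1r1 the same group had the highest mean, but its range overlapped that of the next group. Il6ra was the exception among the genes tested, with DKO on WD at 22 weeks at 6.87 ± 2.07 FPKM (SD, n = 3) beside EKO at 6.74 ± 0.766 FPKM (SD, n = 2). At the other end, DKO on NLD at 6 weeks had the lowest mean for 7 of the 10 genes, and the exceptions were Il3ra, Il4ra and Il1r1.

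**Figure D1:**
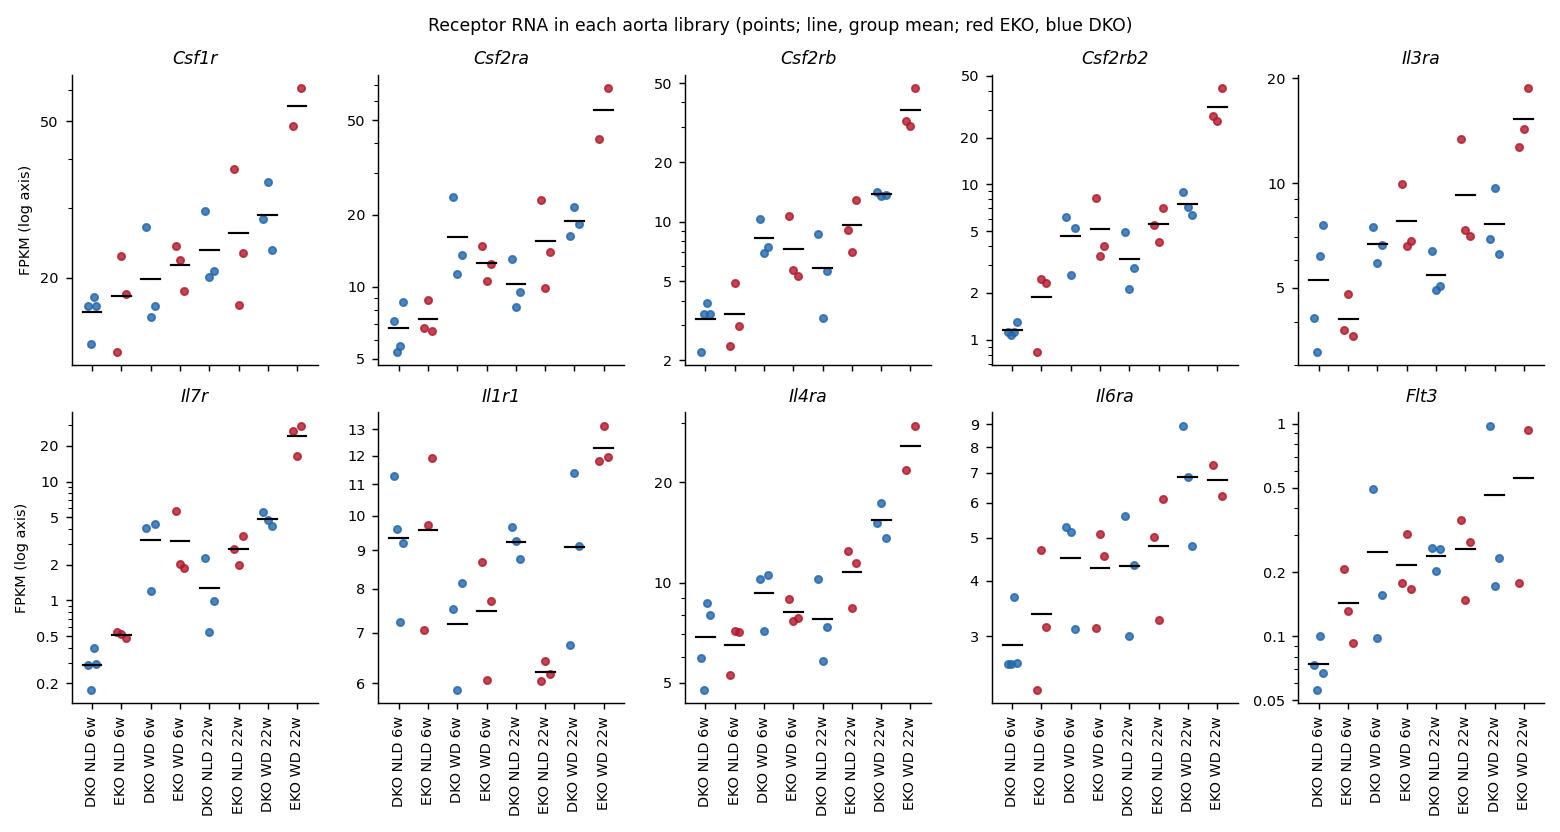
FPKM of the 10 receptors by library on log axes, with 1 point per library, the group mean as a line, EKO in red and DKO in blue. EKO on WD at 22 weeks stands highest for 9 genes by mean, all but Il6ra, and Il1r1 is lowest in EKO on NLD at 22 weeks.

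Differences were tested in limma on log2(FPKM + 1) over the 12849 genes whose mean reached 1 FPKM, with a Benjamini-Hochberg adjusted p under 0.05 counted as called. A fold change on this scale understates the change of genes with low values. The filter passed 9 of the receptors, and Flt3 fell below it. The study's methods give 3 aortas a group for RNA-seq, which 1 group of 4 libraries does not match, and the labels tie no library to an animal, so the p-values measure the spread between these libraries, which may be technical.

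The first question is whether the 2 genotypes differ at the same diet and time. On WD at 22 weeks 7 of the 9 tested receptors were called, each higher in EKO, beside 18.5% of all genes called higher and 21.5% called in either direction. The median log2 fold change was 0.92 over the receptors and 0.10 over all genes. Il7r was higher by 2.07 (SE 0.34, adjusted p = 0.00013), Csf2rb2 by 1.93 (SE 0.31, adjusted p = 0.00012) and Csf2ra by 1.47 (SE 0.32, adjusted p = 0.0022). Csf2rb, Il3ra, Csf1r and Il4ra followed at 1.32, 0.92, 0.91 and 0.70. Il1r1 did not pass, at 0.42 with a 95% interval of 0.05 to 0.80. The count fell to 3 without replicate 3 of EKO on WD at 22 weeks and to 4 without replicate 3 of DKO on WD at 22 weeks. In the other 3 settings limma called 0 receptors. The background was 0.14% of genes on NLD at 6 weeks, 7.84% on NLD at 22 weeks and 0.148% on WD at 6 weeks, and 0, 4 and 0 receptors had an unadjusted p under 0.05.

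The second question is what WD does at a given genotype and time. In EKO at 22 weeks 7 of the 9 receptors were called higher on WD, beside 10.4% of all genes called higher and 19.5% called in either direction. The median log2 fold change was 1.18 over the receptors and -0.06 over all genes. Il7r led at 2.74 (SE 0.34, adjusted p = 1.87e-05), followed by Csf2rb2 at 2.30, Csf2rb at 1.83, Csf2ra at 1.79, Il4ra at 1.18, Csf1r at 1.11 and Il1r1 at 0.88. Il3ra, at 0.70, and Il6ra, at 0.44, did not pass. In EKO at 6 weeks limma called 0 receptors, beside 0.335% of genes, and 5 had an unadjusted p under 0.05. In DKO at 6 weeks Il7r (1.61), Csf2rb2 (1.33), Csf2rb (1.12) and Csf2ra (1.11) rose, which is 4 of 9 beside 1.56% of genes called higher and 5.2% in either direction. That count was 1 without replicate 1 of DKO on NLD at 6 weeks and 0 without replicate 1 or replicate 3 of DKO on WD at 6 weeks. In DKO at 22 weeks Il7r (1.43), Csf2rb (1.18) and Il4ra (0.92) rose, which is 3 of 9 beside 0.841% of genes called higher and 1.75% in either direction. These 3 calls are close to the threshold, with adjusted p between 0.039 and 0.047. The count was 0 when replicate 2 or 3 of DKO on NLD at 22 weeks, or replicate 1 or 3 of DKO on WD at 22 weeks, was left out. It was 1 without replicate 2, 3 or 4 of DKO on NLD at 6 weeks or replicate 3 of EKO on NLD at 6 weeks, which change it through the shared spread.

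The third question is how the receptors changed between 6 and 22 weeks. In EKO on WD 8 of 9 rose, Il6ra being the exception at 0.57 (adjusted p = 0.18), beside 14.8% of all genes called higher and 19.2% in either direction. Il7r rose by 2.67 (SE 0.34), Csf2rb2 by 2.44 (SE 0.31), Csf2rb by 2.22 (SE 0.29), Csf2ra by 2.01 (SE 0.32), Il4ra by 1.53 (SE 0.24) and Csf1r by 1.303 (SE 0.29). In EKO on NLD 7 of 9 were called beside 36.6% of genes in either direction. Il7r, Csf2rb, Csf2rb2, Il3ra, Csf2ra and Il4ra rose by between 0.64 and 1.28, beside 25.4% of genes called higher, and Il1r1 fell by 0.52, beside 11.2% called lower. All genes shifted by a median of 0.12 in that comparison, against 0.93 over the receptors. The count was 4 without replicate 1 of EKO on NLD at 22 weeks. In DKO limma called 0 receptors on either diet, beside 0.0545% of genes on NLD and 0.226% on WD, with 3 and 2 receptors at an unadjusted p under 0.05.

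**Figure D2:**
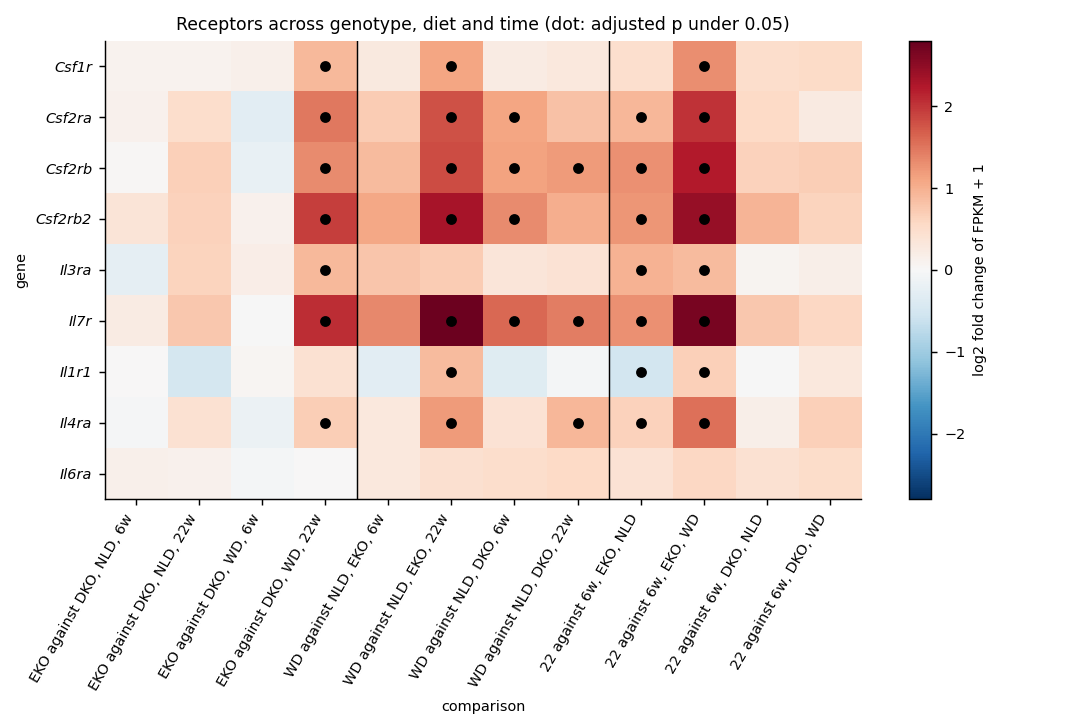
Log2 fold change of FPKM + 1 for the 9 tested receptors (rows) in the 12 comparisons (columns), with a dot for an adjusted p under 0.05. Most dots stand in EKO on WD at 22 weeks against DKO (7 receptors), against NLD (7) and against 6 weeks (8), and Il6ra has none.

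These responses were then compared with each other. On WD the change from 6 to 22 weeks was larger in EKO than in DKO for Il7r (difference 2.09, 95% interval 1.10 to 3.08), Csf2rb2 (1.81, 0.90 to 2.73), Csf2ra (1.75, 0.86 to 2.64) and Csf2rb (1.53, 0.66 to 2.39), beside 7.73% of all genes called higher and 8.97% in either direction. For Csf1r the difference was 0.77 with an interval of -0.04 to 1.58. Without replicate 3 of EKO on WD at 22 weeks the count was 2. The response to WD at 22 weeks differed between genotypes for Il1r1 (0.93, 95% interval 0.40 to 1.45, adjusted p = 0.040), beside 3.57% of genes called higher and 4.39% in either direction. That call was lost in 20 of 35 alternatives, among them the one without the partial library. Il7r (1.31) and Csf2rb2 (1.29) did not pass in that contrast. In EKO the response to WD was larger at 22 than at 6 weeks for Il7r (1.39) and Il1r1 (1.18), which is 2 of 9 beside 9.45% of genes called higher and 21.6% in either direction. Il7r lost this call in 17 of 34 alternatives, among them the pseudocount of 0.1. As a ratio of mean FPKM, Il7r on WD over NLD in EKO was 8.88 at 22 weeks and 6.17 at 6 weeks. Its mean in EKO on NLD at 6 weeks, 0.514 FPKM, lies below the added 1. The size of 1.39 therefore holds for the scale of log2(FPKM + 1) only. In the remaining contrasts limma called 0 receptors: the diet response between genotypes at 6 weeks (0.0311% of genes), the time response between genotypes on NLD (3.87%) and the diet response between times in DKO (0.0389%). Of these, the second had 2 receptors with an unadjusted p under 0.05 and the others 0.

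**Figure D3:**
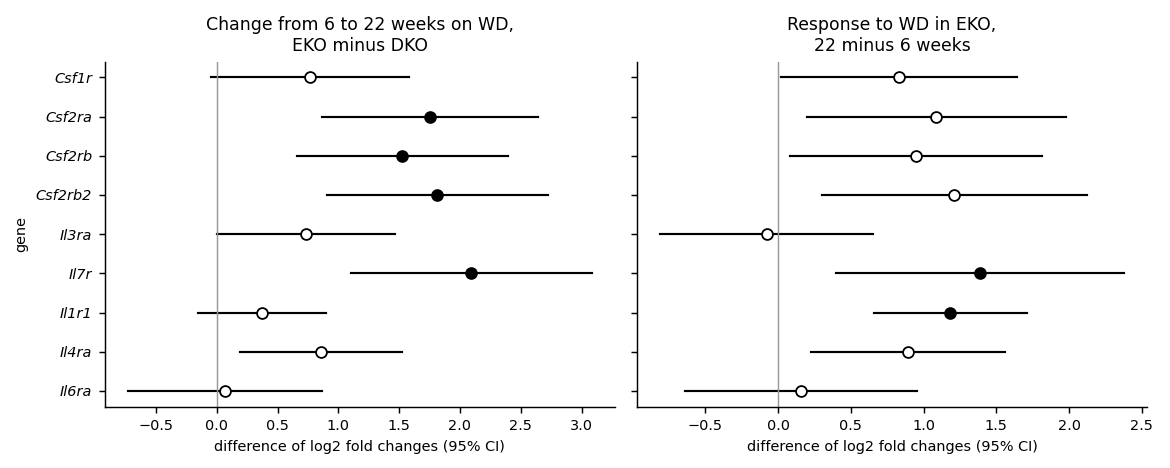
Difference between 2 responses on the log2 scale with its 95% confidence interval for the 9 tested receptors, filled where the adjusted p is under 0.05. On the left Csf2ra, Csf2rb, Csf2rb2 and Il7r lie between 1.53 and 2.09, and on the right Il7r and Il1r1 pass at 1.39 and 1.18.

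Markers of macrophages moved with these results. Setting EKO on WD at 22 weeks against NLD, and against 6 weeks of WD, all 7 macrophage markers were called higher, and against DKO 6 of 7. Of all genes 10.4%, 14.8% and 18.5% were called higher in these comparisons, in that order. Their summed level was 5080 to 6775 FPKM in the 2 libraries of EKO on WD at 22 weeks with all values. It was 879 to 1398 FPKM in EKO on NLD and 1168 to 1222 FPKM in DKO on WD at 22 weeks, and 220 to 405 FPKM in DKO on NLD at 6 weeks. The most abundant were Lyz2, C1qb and C1qa, and no macrophage marker was at 0 in any complete library. Of 5 dendritic cell markers, Itgax passed in the same 3 comparisons, at 63.8 to 98.3 FPKM in EKO on WD at 22 weeks and at most 11.8 FPKM in any other library, while Xcr1 was at 0 in 1 library. Clec9a and Xcr1, with means of 0.825 and 0.133 FPKM, fell below the filter. Over libraries with a value, Zbtb46 stayed between 3.39 and 6.98 FPKM and Cd209a between 0.445 and 4.70 FPKM. Most of the rise in the sum of this list is therefore Itgax alone. Lists of T cell (7 markers) and B cell (4 markers) genes had 0 calls in these comparisons. The summed T cell level was 10.1 to 11.9 FPKM in EKO on WD at 22 weeks and 10.1 to 56.9 FPKM on NLD. In whole aorta a change in the number of cells of a type and a change in RNA per cell cannot be told apart. The part of the macrophage markers in the receptor results was not tested.

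Markers of other cell types were counted in these and further comparisons, beside the share of all genes called. A count of 1 marker is too small to read against such a share. From NLD to WD in EKO at 22 weeks 0 of 4 mast cell, red cell, smooth muscle, endothelium, skeletal muscle and neutrophil markers were called, 1 of 4 fibroblast markers was higher and 3 of 4 adipocyte markers were lower. Of all genes 10.4% were called higher and 9.14% lower there. For EKO against DKO on WD at 22 weeks 1 of 4 fibroblast markers was higher, and 1 of 4 neutrophil and 1 of 4 endothelium markers were lower, beside 18.5% and 2.92% of all genes. From 6 to 22 weeks in EKO on WD 2 of 4 smooth muscle markers were lower, and 1 of 4 neutrophil and 1 of 4 fibroblast markers were higher, beside 4.44% and 14.8% of all genes. From 6 to 22 weeks in EKO on NLD 5 of 7 macrophage markers were higher, with a median log2 fold change of 1.39, and their sum went from 273 to 411 FPKM up to 879 to 1398 FPKM. In that comparison 4 of 4 smooth muscle markers were lower, and 4 of 4 adipocyte, 4 of 4 mast cell, 2 of 4 red cell, 1 of 4 neutrophil, 1 of 4 endothelium and 1 of 3 tested dendritic cell markers were higher. Of all genes 25.4% were called higher and 11.2% lower there. The adipocyte sum in EKO on NLD was 479 to 689 FPKM at 6 weeks and 1217 to 1873 FPKM at 22 weeks. In DKO the WD groups moved as well. At 6 weeks 2 of 7 macrophage and 1 of 3 tested dendritic cell markers were higher on WD, and at 22 weeks 1 of 7 macrophage and 2 of 4 neutrophil markers were higher and 2 of 4 smooth muscle markers lower. Of all genes 1.56% were called higher at 6 weeks, and 0.841% higher and 0.911% lower at 22 weeks. The neutrophil sum was 358 to 914 FPKM in DKO on WD at 22 weeks and 10.6 to 39.0 FPKM on NLD, and the smooth muscle sum 891 to 3262 FPKM and 4880 to 7206 FPKM. The part of these shifts in the receptor results was not tested.

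The beta chains Csf2rb and Csf2rb2 are near copies of each other. On mm10, Csf2rb lies at chr15:78325752-78353847 on the plus strand and Csf2rb2 at chr15:78282507-78305721 on the minus strand, and both are protein-coding. In GENCODE M21 their coding sequences span 2691 and 2637 bases, and 95.2% of the 2631 aligned bases are identical, with a longest identical run of 242 bases. Reads were 50 nt long, and 17.1% of the 50-nt stretches of Csf2rb transcripts and 19.3% of those of Csf2rb2 occur in another gene, mostly in each other, so the split of reads between the pair is uncertain. The first 120 bases of the coding sequences, shown to mark how few bases tell the genes apart, differ at 4 positions, in capitals.
Csf2rb: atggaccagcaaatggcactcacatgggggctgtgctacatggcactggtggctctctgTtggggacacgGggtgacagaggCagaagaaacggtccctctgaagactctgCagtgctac
Csf2rb2: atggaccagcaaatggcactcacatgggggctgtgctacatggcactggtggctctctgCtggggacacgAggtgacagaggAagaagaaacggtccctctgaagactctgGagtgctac
The 120 aligned bases with the most differences, 22, are shown as the stretch where a read is easiest to assign. They start at coding base 309 of Csf2rb and 312 of Csf2rb2.
Csf2rb: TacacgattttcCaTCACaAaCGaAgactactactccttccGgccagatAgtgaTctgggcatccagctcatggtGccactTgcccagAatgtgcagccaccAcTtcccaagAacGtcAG
Csf2rb2: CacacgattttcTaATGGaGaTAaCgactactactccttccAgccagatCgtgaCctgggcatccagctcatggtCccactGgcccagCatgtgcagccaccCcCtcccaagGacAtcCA

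Csf2rb2, the IL-3 beta chain, was the lower of the pair in every group and came closest to Csf2rb in EKO on WD at 22 weeks. Its values there were 27.5, 25.4 and 41.9 FPKM in replicates 1 to 3, against 5.44, 4.27 and 6.98 FPKM on NLD. In DKO on WD at 22 weeks they were 8.86, 7.11 and 6.33 FPKM. In DKO on NLD at 6 weeks the 4 libraries held 1.08 to 1.29 FPKM, the narrowest group of this gene. The EKO WD libraries at 22 weeks do not overlap any other group. Csf2rb, the chain shared by the GM-CSF, IL-3 and IL-5 receptors, was at 32.1, 30.4 and 47.4 FPKM in the same 3 libraries and at 9.04, 7.06 and 12.8 FPKM on NLD. In DKO on WD at 22 weeks it was at 14.2, 13.5 and 13.6 FPKM, above the 8.67, 3.28 and 5.65 FPKM of DKO on NLD. These ranges are separate for Csf2rb, and for Csf2rb2 the DKO ranges at 22 weeks (6.33 to 8.86 and 2.11 to 4.94 FPKM) are separate as well, although Csf2rb2 did not pass there (log2 fold change 1.01, adjusted p = 0.088).

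The ratio of Csf2rb2 to Csf2rb within a library was 0.836 to 0.883 in EKO on WD at 22 weeks and 0.289 to 0.777 over the other 22 libraries. Its mean was 0.858 ± 0.0236 (SD, n = 3) there, 0.584 ± 0.0351 (SD, n = 3) in EKO on NLD at 22 weeks, 0.702 ± 0.0853 (SD, n = 3) in EKO on WD at 6 weeks and 0.539 ± 0.0811 (SD, n = 3) in DKO on WD at 22 weeks. DKO on NLD at 6 weeks had the lowest mean, 0.373 ± 0.0989 (SD, n = 4). In each of these 3 comparisons of 3 against 3 libraries a two-sided exact permutation test gave p = 0.1, the smallest p it allows, and the ratio was looked at after the values were seen. Since the genes share sequence, how reads were divided between them can move this ratio, which was not tested.

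**Figure D4:**
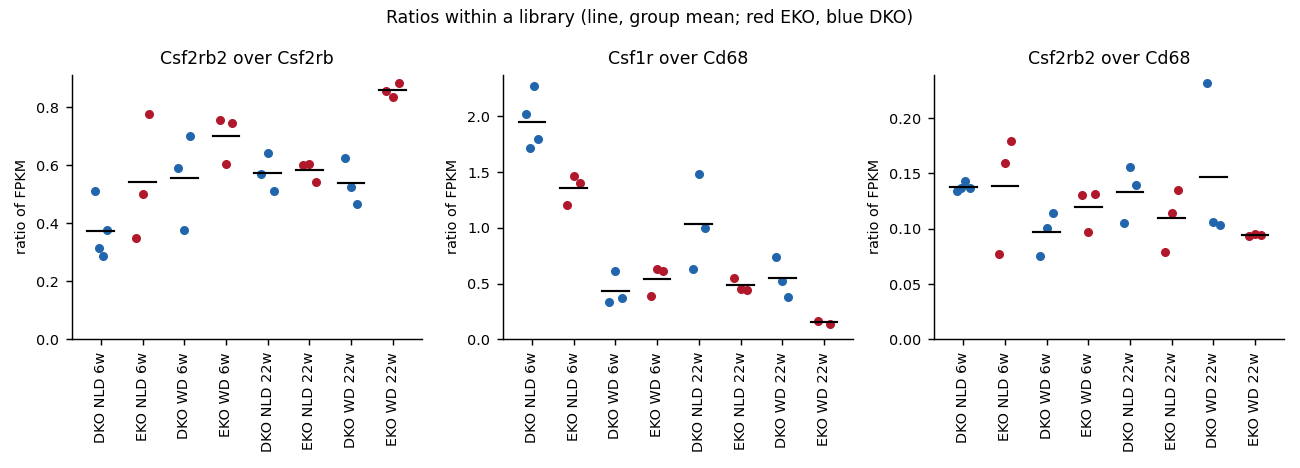
Ratio of FPKM within each library for Csf2rb2 over Csf2rb, Csf1r over Cd68 and Csf2rb2 over Cd68, with 1 point per library and the group mean as a line, EKO in red and DKO in blue. In EKO on WD at 22 weeks the first ratio is at its highest (0.836 to 0.883) and the second at its lowest (0.137 to 0.165).

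The alpha chains pair with these beta chains and give each receptor its ligand. Csf2ra, the GM-CSF alpha chain at chr19:61223957-61228429 on the minus strand, was at 41.8 and 68.3 FPKM in EKO on WD at 22 weeks. It was at 23.0, 9.84 and 14.0 FPKM in EKO on NLD and at 16.4, 21.6 and 18.4 FPKM in DKO on WD. The EKO WD libraries lie above both groups without overlap. In DKO at 6 weeks it went from 5.32 to 8.63 FPKM on NLD to 11.3 to 23.7 FPKM on WD, again without overlap. Il3ra, the IL-3 alpha chain at chr14:14346275-14356011 on the plus strand, moved less. Its values in EKO were 3.79, 4.79 and 3.65 FPKM on NLD at 6 weeks and 13.4, 7.31 and 7.07 FPKM on NLD at 22 weeks. On WD they were 9.96, 6.61 and 6.83 FPKM at 6 weeks and 12.7, 14.3 and 18.8 FPKM at 22 weeks. The 22-week groups on NLD and WD overlap through replicate 1 on NLD, and the change in time on WD (0.89, SE 0.25, adjusted p = 0.015) stood beside one of 0.97 on NLD (SE 0.25, adjusted p = 0.0063).

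Il7r, the alpha chain of the IL-7 receptor, lies at chr15:9505788-9530176 on the minus strand and had the widest range, as a ratio of highest to lowest library, of the receptors that passed the filter, from 0.176 to 29.5 FPKM. Its values in EKO on WD at 22 weeks were 26.7, 16.4 and 29.5 FPKM. In EKO on NLD at 22 weeks they were 2.68, 2.00 and 3.49 FPKM, and in DKO on WD at 22 weeks 5.52, 4.76 and 4.24 FPKM. The first group does not overlap either of the others. The 6-week groups on NLD were low, at 0.284, 0.176, 0.394 and 0.291 FPKM in DKO and 0.537, 0.518 and 0.487 FPKM in EKO. On WD at 6 weeks 1 library in each genotype departed from the others: EKO held 5.61, 2.02 and 1.87 FPKM and DKO 4.04, 1.196 and 4.39 FPKM.
The level of Il7r times relative depth came out as whole reads, with a mean deviation of 0.015 from a whole number over 25 libraries. It rested on 11 to 24 reads per library in DKO on NLD at 6 weeks and on 943 to 2067 reads in EKO on WD at 22 weeks. With exact Poisson 95% intervals, the lowest library of the second group was at 15.4 to 17.5 FPKM and the highest of the first at 0.253 to 0.586 FPKM. Such intervals cover counting error only.

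Il7r and Csf2rb2 were the 2 receptors with the largest fold changes in EKO at 22 weeks, and their promoters are printed because these genes moved together. The windows run from 250 bases before to 50 after a start taken from RefSeq (mm10), where 8 of the 10 receptors had an entry. The gene spans given here are from GENCODE M21, and the starts can differ. For Il7r the whole window lies inside its span, downstream of the start at 9530176. The capitals mark AGGAAGT or its reverse complement, ACTTCCT, letters found in many binding sites of ETS factors such as PU.1, a regulator of myeloid and lymphoid cells. The motif was chosen after these promoters had been read.
Il7r, chr15:9529827-9530126, minus strand: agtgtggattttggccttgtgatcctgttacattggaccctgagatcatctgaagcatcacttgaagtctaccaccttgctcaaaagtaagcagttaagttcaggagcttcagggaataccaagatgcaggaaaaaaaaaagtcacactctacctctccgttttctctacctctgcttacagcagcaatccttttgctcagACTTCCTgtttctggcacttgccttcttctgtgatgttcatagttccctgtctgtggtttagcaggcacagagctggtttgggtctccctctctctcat
Csf2rb2, chr15:78305672-78305971, minus strand: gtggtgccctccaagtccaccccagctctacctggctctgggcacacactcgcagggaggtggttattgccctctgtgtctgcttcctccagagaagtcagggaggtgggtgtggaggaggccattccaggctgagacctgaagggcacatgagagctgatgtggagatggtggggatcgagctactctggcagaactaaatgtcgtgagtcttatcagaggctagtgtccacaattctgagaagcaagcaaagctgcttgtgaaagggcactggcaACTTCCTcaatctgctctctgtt
Searched on both strands, the motif of 7 letters was present in 4 of 9 windows of the receptors (Il7r, Csf2rb2, Il3ra and Il6ra) and in 9.35% of the 32851 windows in the table. A match is a description of the letters and no evidence of binding. Whether the motif has a part in the receptor results was not tested.

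Il4ra, the chain common to IL-4 and IL-13 signalling, lies at chr7:125552120-125579474 on the plus strand. It was at 21.8 and 29.5 FPKM in EKO on WD at 22 weeks, above the 15.1, 17.3 and 13.6 FPKM of DKO on WD and the 12.4, 8.39 and 11.4 FPKM of EKO on NLD. No library overlaps between these 3 groups. DKO on WD at 22 weeks was in turn above DKO on NLD, at 10.2, 5.80 and 7.38 FPKM. The genotype difference on WD (0.70, SE 0.24, adjusted p = 0.042) was lost in 10 of 35 alternatives and reversed in 1, the one that keeps the zeros of the partial library. Il6ra, the IL-6 binding chain, lies at chr3:89864059-89913196 on the minus strand and stayed between 2.27 and 8.94 FPKM. In EKO at 22 weeks it was at 7.28 and 6.20 FPKM on WD and 5.03, 3.26 and 6.11 FPKM on NLD. In DKO at 22 weeks it was at 8.94, 6.86 and 4.80 FPKM on WD and 5.6, 3.01 and 4.34 FPKM on NLD. The WD and NLD groups overlap in DKO and lie just apart in EKO. A change did not pass with these libraries, and the 95% interval for WD against NLD in EKO at 22 weeks was -0.15 to 1.04 on the log2 scale. In DKO at 22 weeks the interval was 0.03 to 1.09, with an adjusted p of 0.23 in limma.

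Il1r1 followed a course of its own. The gene lies at chr1:40225080-40317257 on the plus strand and encodes the receptor through which IL-1 signals. In EKO at 22 weeks it was at 6.05, 6.42 and 6.18 FPKM on NLD, the lowest group mean of all, and at 11.8, 13.2 and 11.96 FPKM on WD, the highest. These 2 groups are tight and far apart (log2 fold change 0.88, SE 0.18, adjusted p = 0.0019), and the call held in all 35 alternatives. The means of the other groups lay between, and DKO at 22 weeks was at 9.66, 9.26 and 8.76 FPKM on NLD and 6.74, 11.4 and 9.12 FPKM on WD. At 6 weeks EKO held 7.06, 9.72 and 11.9 FPKM on NLD and 8.67, 6.07 and 7.70 FPKM on WD, which overlap. From 6 to 22 weeks Il1r1 in EKO thus fell on NLD (by 0.52, SE 0.18, adjusted p = 0.028) and rose on WD (0.66, SE 0.18, adjusted p = 0.012). The fall on NLD was lost in 6 of 35 alternatives. On NLD at 22 weeks Il1r1 was lower in EKO than in DKO in every library, a difference of -0.50 that did not pass (adjusted p = 0.093).

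Csf1r, the receptor tyrosine kinase of CSF-1 and IL-34, was the most abundant receptor in 7 of the 8 groups by mean FPKM and had smaller fold changes than the GM-CSF chains in the 3 comparisons above with EKO on WD at 22 weeks. It was at 48.6 and 60.9 FPKM in EKO on WD at 22 weeks, at 37.8, 17.03 and 23.1 FPKM in EKO on NLD and at 28.2, 34.9 and 23.5 FPKM in DKO on WD. The first group does not overlap the others, and the other groups of both genotypes overlap each other in sequence, down to 13.6 to 17.8 FPKM in DKO on NLD at 6 weeks. In EKO on NLD its change in time did not pass (0.47, SE 0.26, adjusted p = 0.16). The genotype difference on WD at 22 weeks was lost in 7 of 35 alternatives and reversed in 1, with the zeros of the partial library kept. Csf1r transcripts share 16.4% of their 50-nt stretches with Hmgxb3, which lies on the opposite strand, and whether counting used strand is not given in the sources used here. Relative to Cd68, a glycoprotein of macrophage lysosomes, Csf1r was at 1.72 to 2.27 in DKO on NLD at 6 weeks and at 0.137 to 0.165 in EKO on WD at 22 weeks. In the same groups, which differ in genotype, diet and time, Csf2ra relative to Cd68 was at 0.674 to 0.912 and 0.142 to 0.154, and Csf2rb2 at 0.134 to 0.143 and 0.0935 to 0.0951. For Csf2rb2 this ratio was 0.0790 to 0.135 in EKO on NLD at 22 weeks, which spans that of EKO on WD. It was 0.0972 to 0.132 in EKO on WD at 6 weeks and 0.103 to 0.2315 in DKO on WD at 22 weeks, both above it. Il7r relative to Cd68 was at 0.0223 to 0.0502 in DKO on NLD at 6 weeks and, the other way, at 0.0613 to 0.0908 in EKO on WD at 22 weeks. Its highest mean ratio was in DKO on WD at 22 weeks, 0.0949. The mean was 0.0729 in EKO on WD at 22 weeks and 0.0698 in EKO on WD at 6 weeks. Thus Csf1r and Cd68 changed unequally, and the ratios, which were chosen after the values were seen, carry no test.

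Flt3, the receptor of FLT3 ligand on progenitors and dendritic cells, lay below the filter in every comparison. Its level times relative depth came out as whole reads, with a mean deviation of 0.00058 over 24 libraries, and rested on 4 to 75 reads. In DKO on NLD at 6 weeks 4 libraries held 5, 4, 7 and 5 reads (0.0557 to 0.1001 FPKM). The highest libraries were replicate 3 of EKO on WD at 22 weeks, with 75 reads and 0.933 FPKM (exact Poisson 95% interval 0.734 to 1.17), and replicate 1 of DKO on WD at 22 weeks, with 56 reads and 0.979 FPKM (0.740 to 1.27). Their group mates held 12 reads in EKO and 8 and 10 reads in DKO, so libraries of 1 group differed by more than their counting error. The DKO library also had the highest B cell marker sum of all, 60.4 FPKM, and the EKO library the highest dendritic cell marker sum, 109 FPKM. The latter sum is mostly Itgax, which reached 98.3 FPKM in that EKO group, so it does not stand for the whole list. Replicate 1 of the same EKO group held a dendritic cell marker sum of 71.8 FPKM with Flt3 at 0.178 FPKM. The part of either cell type in the Flt3 level was not tested. Fitted without the filter, Flt3 was called in 0 of 18 contrasts by limma, with a lowest unadjusted p of 0.12.

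**Figure D5:**
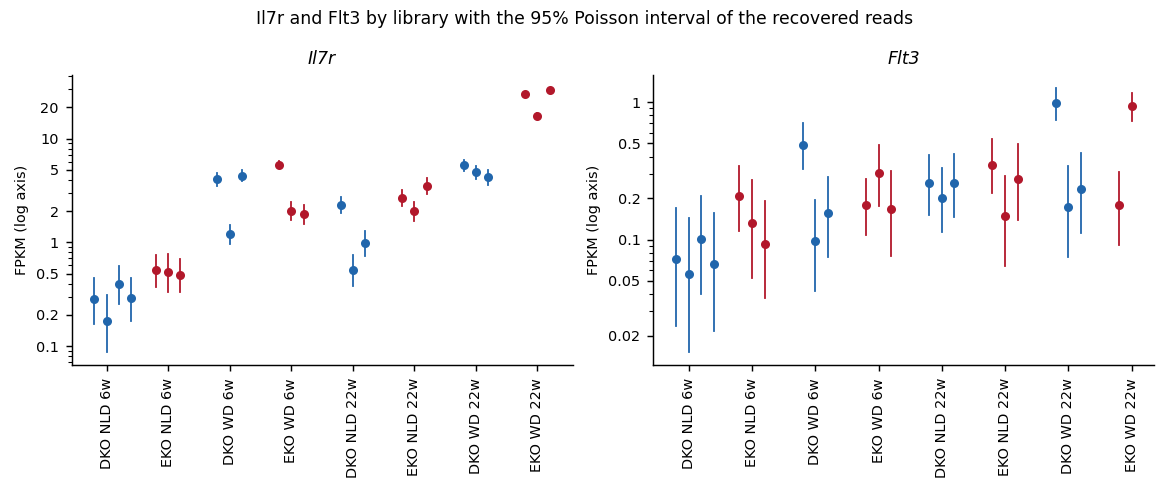
FPKM of Il7r and Flt3 in each library on log axes, with the exact Poisson 95% interval of the recovered reads as a bar, EKO in red and DKO in blue. Il7r in EKO on WD at 22 weeks (16.4 to 29.5 FPKM) is clear of all other libraries, while Flt3 has 1 high library in each of 2 groups at 22 weeks, at 0.933 and 0.979 FPKM.

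Across libraries the receptors fell into a tight core and 3 genes outside it. Pearson's r of log2(FPKM + 1) was 0.98 between Csf2rb2 and Il7r over 25 libraries, and between 0.84 and 0.98 for every pair among Csf1r, Csf2ra, Csf2rb, Csf2rb2, Il3ra, Il7r and Il4ra. Il6ra correlated with these 7 at 0.56 to 0.77 and Flt3 at 0.51 to 0.64. Il1r1 ranged from -0.11 to 0.33 with the other 9. Values are over 24 or 25 libraries, which share group and depth, so these values are descriptions. Among all tested genes outside the list, the most similar to Il7r were Pik3r5 (r = 0.99), Cd53 (0.98) and Slamf7 (0.98), and to Csf2rb2 Pik3r5 (0.98), Lcp1 (0.98) and Cd300lf (0.98). Csf2ra was closest to Cyth4 (0.98), Tyrobp (0.98) and Sfpi1 (0.98), the gene of PU.1. Csf1r was closest to Ugt1a7c (0.97), Tbxas1 (0.96) and Nfam1 (0.95), and Csf2rb to Lcp1 (0.98), Cd300lf (0.98) and Adam8 (0.97). Il4ra was closest to Socs3 (0.95), Lcp1 (0.95) and Gpr65 (0.945), and Il3ra to Necap2 (0.95), Dbnl (0.94) and Rhog (0.93). Il1r1 was closest to Serpinb9 (0.91), Pros1 (0.89) and Zdhhc20 (0.88), Il6ra to St3gal1 (0.87), C4b (0.86) and C5ar1 (0.86), and Flt3 to Gm1987 (0.86), 1700009P17Rik (0.81) and Tnip1 (0.78).

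Of the ligands of such receptors, 6 of 19 passed the filter (Csf1, Flt3l, Il1b, Il1rn, Il34 and Kitl). From NLD to WD in EKO at 22 weeks, where 10.4% of all genes were called higher and 9.14% lower, 1 of these 6 was called, Il1rn, which encodes the IL-1 receptor antagonist that blocks Il1r1. It was higher by 2.8 (adjusted p = 0.0002), at 22.8 and 25 FPKM on WD against 2.20 to 2.91 FPKM on NLD. Csf1, which encodes the ligand of Csf1r, was at 24.3 and 28.0 FPKM on WD and 19.4 to 22.5 FPKM on NLD and was not called. Csf2, the gene of GM-CSF, reached at most 0.485 FPKM in any library. The median log2 fold change was -0.01 over the 6 ligands and -0.06 over all genes.

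Of 22 other receptor chains 15 were tested in the same comparison, and 3 were higher and 0 lower, with a median of 0.41. Of all genes 10.4% were called higher and 19.5% in either direction, with a median of -0.06. The 3 chains called higher were Il10rb (1.38) and Il10ra (1.83), the chains of the IL-10 receptor, and Il13ra1 (1.64), which pairs with Il4ra in the receptor for IL-13. Of 25 genes of signal transduction 24 were tested, 11 higher and 2 lower, with a median of 0.19. Among the higher were Inpp5d (1.5), a lipid phosphatase, Socs3 (1.94), an inhibitor of cytokine signalling, the adaptor Grb2 (0.70) and Tyrobp (2.50), the adaptor DAP12. Of 15 myeloid transcription factors 12 were tested, 5 higher and 2 lower, with a median of 0.56, among them Runx1 (1.62) and Irf5 (1.46) higher and Cebpb (-1.99) lower. Of 49 surface antigens of blood lineages 41 were tested, 12 higher and 0 lower, among them Cd44 (2.36), Cd38 (1.54), Cd14 (1.55) and Anpep (1.93). The median of these antigens was -0.09, below 0 although every called antigen was higher.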

How the data were processed

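RNA of 25 mouse aorta libraries was sequenced by the authors as 50 nt unpaired reads. The deposited values are FPKM, which the authors made on mm10 with, per the labels, TopHat 1.3.2, Cuffdiff, Bowtie 0.12.8 and SAMtools 0.1.19. The gene models, and whether counting used strand, are not given in the sources used here. Absolute depth is unknown, and columns of no sample numbered 0.

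Zeros of the partial library were set to missing: 68.5% of the 8693 genes over 5 FPKM in its other 2 replicates were at 0 there. Groups were compared with limma 3.58.1 in R 4.3.3 on log2(FPKM + 1), with 1 mean per group, a trended and robust variance, a mean of at least 1 FPKM and Benjamini-Hochberg adjustment within each of 18 contrasts. The code was tested on simulated data. Alternatives changed the pseudocount (0.1 and 5), the filter, the scaling, the libraries, the treatment of zeros and the replicate block.

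The receptors and the lists were chosen with earlier results of these data known. Named genes are the 10 receptors, up to 4 called genes of a list with the smallest p, the 3 most abundant markers of a cell type, and the 3 genes most similar to each receptor. Where a name falls outside this rule (Cd68, Csf1, Csf2, Flt3l, Il1b, Il34, Kitl, Clec9a, Xcr1, Hmgxb3) it was chosen after its values were seen. The neutrophil marker Ly6g was not matched.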

Additional observations from a re-analysis of the deposited data

Results flagged for a closer look

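Il6ra in DKO on NLD at 6 weeks had 1 library apart from the other 3. Replicate 3 was at 3.68 FPKM and the others at 2.59 to 2.61 FPKM, and the gap took up 0.982 of the group's range. This was 1 of 10 receptors examined in the 1 group of 4 libraries, and chance marks about 1 group in 20.

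A test of the difference between responses passed for 5 receptors. On WD the change from 6 to 22 weeks was larger in EKO than in DKO by 2.09 for Il7r, 1.81 for Csf2rb2, 1.75 for Csf2ra and 1.53 for Csf2rb on the log2 scale. Of all genes 7.73% were called higher in that contrast and 8.97% in either direction. In EKO the response to WD was larger at 22 than at 6 weeks by 1.39 for Il7r and 1.18 for Il1r1 on the scale of log2(FPKM + 1). That stands beside 9.45% of genes called higher and 21.6% in either direction, and Il7r lost the call in 17 of 34 alternatives. As a ratio of mean FPKM the Il7r response in EKO was 8.88 at 22 weeks and 6.17 at 6 weeks. For Il1r1 the response to WD at 22 weeks was larger in EKO than in DKO by 0.93, beside 3.57% of genes called higher and 4.39% in either direction. This Il1r1 call was lost in 20 of 35 alternatives.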

How the results depend on the processing

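Keeping the zeros of the partial library as deposited moved most counts of receptors called. It gave 4 for EKO against DKO on WD at 22 weeks, 4 for WD against NLD in EKO at 22 weeks, 0 for WD in DKO at either time, 4 and 3 for time in EKO on NLD and WD, 2 for the time response between genotypes on WD and 0 for the other 2 differences with calls. By construction it reversed receptors listed at 0 there: against DKO, Csf1r -1.02, Csf2ra -0.45 and Il4ra -0.88. Against NLD they were Csf1r -0.82, Csf2ra -0.13, Il4ra -0.39 and Il6ra -0.54, and against 6 weeks Csf1r -0.63, Il4ra -0.041 and Il6ra -0.41. In the time response between genotypes they were Csf2ra -0.17 and Csf1r -1.16. For the diet response between genotypes at 22 weeks the count was 3 with a pseudocount of 5, and 0 with no filter, median-ratio scaling, the partial library left out, only the groups compared, or the replicate block. For the diet response between times in EKO it was 1 with a pseudocount of 0.1, no filter or only the groups compared, 6 with a pseudocount of 5 and 4 with median-ratio scaling. WD in EKO at 6 weeks gave 1 with a pseudocount of 0.1 or the replicate block. With only the groups compared, EKO against DKO on NLD at 22 weeks gave 1 and WD in DKO at 22 weeks 0. The cause of these moves was not tested.

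Leaving out 1 library at a time gave 3 to 8 calls for EKO against DKO on WD at 22 weeks, 0 to 1 and 6 to 8 for WD in EKO at 6 and 22 weeks, 0 to 4 and 0 to 3 for WD in DKO, and 4 to 8 and 6 to 8 for time in EKO on NLD and WD. The ranges were 0 to 1, 2 to 4 and 1 to 5 for the 3 differences with calls. Every such refit, and each alternative above, also moves the adjusted p of all other genes. The share of all genes called in them is not given here, so these counts do not set the receptors apart from other genes. Csf2rb, Csf2rb2 and Il7r kept their calls in all alternatives that tested them for EKO on WD at 22 weeks against DKO, NLD and 6 weeks. With a minimum mean of 5 FPKM, Il7r, at a mean of 4.84 FPKM, was not tested. Replicate numbers did not pair the libraries: deviations of 84 same-numbered pairs had a median correlation of 0.03 (-0.40 to 0.41), and 7 of 25 libraries correlated best with their own number.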
